A study of Mus musculus with 4 samples.

Results

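The ADAMTS proteases described here are 9 genes of the mouse femoral periosteum, the membrane on the outer face of bone, measured in cells sorted by a Sox9 lineage label. The members are the rows of the authors' deposited table that carry the names *Adamts1*, *Adamts2*, *Adamts3*, *Adamts4*, *Adamts5*, *Adamts9*, *Adamts12*, *Adamts14* and *Adamts15*, which is 9 of 47643 genes. They fall into 5 aggrecanases (*Adamts1*, *Adamts4*, *Adamts5*, *Adamts9* and *Adamts15*), 3 procollagen peptidases (*Adamts2*, *Adamts3* and *Adamts14*) and *Adamts12*, which belongs to neither class.

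All animals, for the TdTomato-positive as for the TdTomato-negative cells, carried 1 allele of Sox9CreErt2, a tamoxifen-inducible Cre driven from the Sox9 locus, and 1 allele of the Td-Tomato reporter. Each mouse was given 3 injections of 100 µL tamoxifen at 20 mg/mL, spaced 48 h apart, and femora were taken 2 weeks after the last of these. TdTomato-positive cells therefore descend from, or are, cells in which Cre was active at the time of tamoxifen, and TdTomato-negative cells are the remaining cells of the same digests. The diaphyses were digested in liberase at 100 µg/mL for 2 h, and about 10000 cells of each population were sorted from 18 femora of 9 mice in 2 collections. Each population is thus a pool of mice, neither age nor sex is given in the sources used here, and the negative cells are an unselected mixture rather than a defined cell type. There are 2 TdTomato-positive and 2 TdTomato-negative libraries, and p-values measure only the spread between these libraries.

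ADAMTS proteins are secreted zinc metalloproteases with thrombospondin motifs, made as inactive precursors that furin-type convertases cut. Aggrecanases cleave the core proteins of aggrecan and versican, the large proteoglycans of cartilage and of loose or remodelling matrix. Procollagen peptidases cut the amino-terminal propeptide from fibrillar procollagens, a step in assembling the collagen fibrils of bone, tendon and skin.

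The catalytic site of these proteases is encoded by a stretch of the coding sequence with 3 histidine codons, whose histidines hold the zinc ion. It is shown for the 6 members below, of which *Adamts1* and *Adamts9* are the only aggrecanases. The sites of *Adamts4*, *Adamts5* and *Adamts15* were not compared. Coordinates and identifiers are those of the deposited table on mm10. The sequences are spliced coding bases of GENCODE M21 on GRCm38, the same build, written 5′ to 3′ on the coding strand, with the 3 histidine codons in capitals.
Adamts1: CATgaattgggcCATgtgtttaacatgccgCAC
Adamts9: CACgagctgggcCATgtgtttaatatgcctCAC
Adamts2: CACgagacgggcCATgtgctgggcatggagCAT
Adamts3: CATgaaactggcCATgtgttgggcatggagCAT
Adamts14: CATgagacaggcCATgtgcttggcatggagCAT
Adamts12: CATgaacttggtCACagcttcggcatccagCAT
Each stretch spans 33 bases and is split by intron sequence in the genome. In *Adamts1* it lies within chr16:85799191-85799545 on the minus strand, at codons 402 to 412 of 968. In *Adamts2* it lies within chr11:50775403-50776134 on the plus strand, at codons 409 to 419 of 1213. The aggrecanases *Adamts1* and *Adamts9* share 28 of the 33 bases. Among the procollagen peptidases, *Adamts2* and *Adamts14* share 30, and *Adamts3* shares 29 with each of them. Between the classes, *Adamts12* included, pairs share 17 to 24 bases. The stretch ends in the histidine codon CAT in *Adamts12* and the procollagen peptidases, and in the histidine codon CAC in *Adamts1* and *Adamts9*.

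The levels below are reads of a gene per M reads of its library (RPM), solved from the deposited group means, and exon RPKM, which is RPM per kilobase of annotated exon and serves for comparing genes with each other. The libraries held 32.0 and 41.6 M reads in TdTomato-positive cells, and 17.0 and 74.0 M reads in TdTomato-negative cells. No collection number can be tied to a value, so each library is called by its group and its depth, and pairs of values follow the depths in that order. *Sox9*, the gene whose locus drives the Cre, had 90.7 and 25 RPM in the positive libraries, and 18.4 and 0.135 RPM in the negative libraries. The negative library of 74.0 M reads stood apart from the other 3. All 6 tendon and fibroblast markers were detected in every library, and their summed level was 1787 to 10529 RPM in the positive libraries, and 3.93 to 2865 RPM in the negative ones. The 8 chondrocyte markers summed to 3023 to 6897 RPM in the positive libraries, and to 4.92 to 189 RPM in the negative ones, where *Acan* and *Matn3* were at 0 reads in the library of 74.0 M reads. The 6 osteoblast markers summed to 3677 to 24792 RPM in the positive libraries, and to 50.8 to 3448 RPM in the negative ones. The 6 neutrophil markers were at 17193 to 17251 RPM in positive cells, and at 23159 to 58512 RPM in negative cells. The 6 leukocyte markers were at 761 to 1472 RPM in positive cells, and at 2099 to 5511 RPM in negative cells. Markers of cartilage and tendon cells were thus lowest in that deepest negative library, and blood cell markers were high in all 4 libraries. The file does not fix which negative library held which osteoblast sum, since the other assignment of *Col1a1* and *Bglap* with the other open genes gives 171 RPM at 17.0 M reads and 14334 RPM at 74.0 M reads. The file does not tie every marker's values to its libraries. Under the other assignment the leukocyte and neutrophil genes were again higher in the negative cells by mean RPM. With all open genes so switched, the sums of both lists overlapped between the groups. Neutrophil markers then summed to 7304 and 30145 RPM in positive cells, and to 13721 and 99658 RPM in negative cells. Leukocyte markers summed to 435 and 2110.3 RPM in positive cells, and to 1242 and 9248 RPM in negative cells. In such bulk samples, fewer cells of a type and less RNA per cell cannot be told apart.

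**Figure D1:**
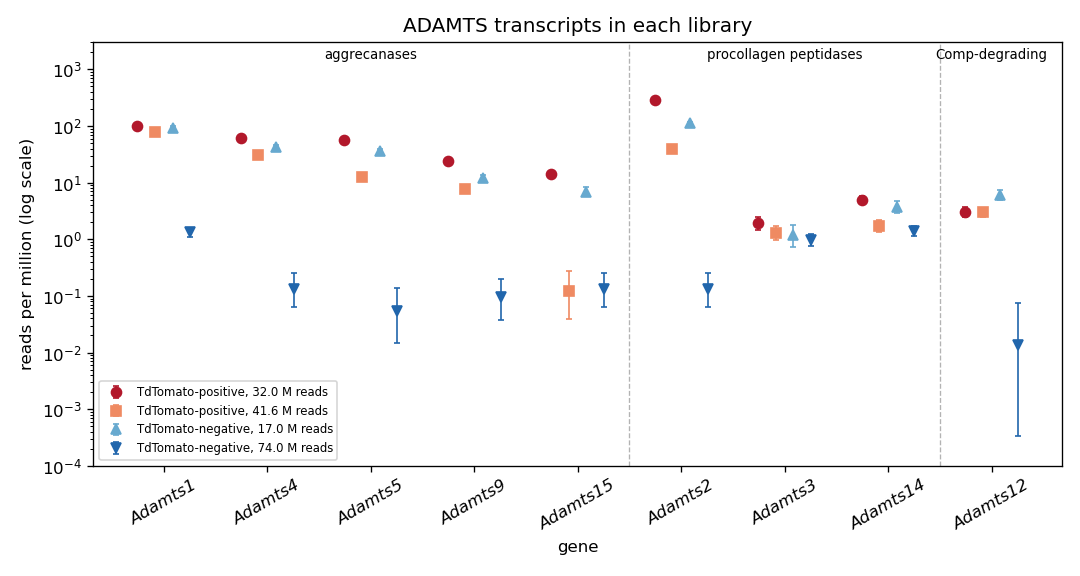
RPM of each ADAMTS gene (vertical axis, log scale) in the 2 TdTomato-positive and the 2 TdTomato-negative libraries, with bars for the exact 95% Poisson interval of the reads. The negative library of 74.0 M reads lies lowest for 8 of the 9 genes, while the negative library of 17.0 M reads lies above the positive library of 41.6 M reads for 7 of the 8 genes whose values are tied to libraries; for *Adamts9* the assignment of the 2 positive values is not fixed by the file.

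Transcripts of the 9 proteases were found in both populations, and none passed the test between them. Summed over the members, the level was 551 and 177 RPM in the positive libraries, and 317 and 4.28 RPM in the negative libraries. The 2 groups overlapped, because the negative library of 17.0 M reads lay between the 2 positive ones. Of the 9 members, 0 in the authors' deposited table reached a false discovery rate of 0.05, where 0.00630% of all 47643 genes were called higher and 0% lower. Of the 9, 0 in the authors' deposited table also reached an unadjusted p under 0.05, against 0.598% of all genes in the higher and 0.296% in the lower direction. The 3 genes called in the authors' deposited table were *Col2a1*, *Mia* and *Bglap*, of which *Col2a1* encodes a substrate of the procollagen peptidases.

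The same order of libraries recurred across members. It is counted over the 8 members other than *Adamts9*, whose 2 positive values the file does not tie to a library. The positive library of 32.0 M reads was highest for 7 of the 8, against 37.2% of the 10916 genes whose library values are fixed by the file. The negative library of 74.0 M reads was lowest for 7 of the 8, against 27.6% of those genes. The full order of positive 32.0 M, negative 17.0 M, positive 41.6 M and negative 74.0 M held for 5 of the 8, against 11.3% of those genes. The positive libraries were both above the negative ones for 1 member, *Adamts3*, where 20.7% of those genes were separated in that direction. These members share their libraries, so the counts describe 4 libraries and are not independent observations. Each of the 2 collections gave 1 library of either population, and the file does not say which libraries belong together. If those of 32.0 and 17.0 M reads and those of 41.6 and 74.0 M reads were the pairs, the positive library was the higher one in both pairs for 6 of the 8 members. With 32.0 beside 74.0 M reads and 41.6 beside 17.0 M reads, that held for 1 of the 8. The share of all genes was not counted for either pairing, so these counts show no trait of the members.

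Among the aggrecanases, *Adamts1*, an early-response protease that cleaves aggrecan and versican, had the highest exon level of its class in all 4 libraries, and of all 9 members in the positive library of 41.6 M reads and the negative one of 17.0 M reads. It lies on chr16:85793827-85803113 (ENSMUSG00000022893.14), minus strand. It had 3239 and 3327 reads in positive cells, and 1596 and 98 reads in negative cells. These reads correspond to 101 and 80.0 RPM in positive cells, and to 94.0 and 1.32 RPM in negative cells. Per kilobase of exon this was 19.1 and 15.1 RPKM in positive cells, and 17.7 and 0.250 RPKM in negative cells. In 3 of the 4 libraries the level was thus alike and the negative library of 74.0 M reads alone was low, by 71.0-fold relative to the other negative library. The means were 90.7 ± 15.1 RPM in positive cells and 47.7 ± 65.5 RPM in negative cells (SD, n = 2 libraries each), a log2 fold of 0.93. The assignment of the 2 positive values rests on reads that came out whole within 0.05, and the other assignment would give 61.2 and 132 RPM.

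*Adamts4*, one of the main aggrecanases of cartilage, followed the same pattern at a lower exon level. It lies on chr1:171250421-171260637 (ENSMUSG00000006403.12), plus strand. It had 60.7 and 30.7 RPM in the positive libraries, and 42.3 and 0.135 RPM in the negative libraries, the last from 10 reads. The positive libraries bracketed the negative library of 17.0 M reads, and only the library of 74.0 M reads was far below. In exon RPKM the level was 12.6 and 6.39 in positive cells, and 8.79 and 0.0281 in negative cells. The group means of 45.7 ± 21.2 RPM in positive cells and 21.2 ± 29.8 RPM in negative cells (SD, n = 2 libraries each) differ by a log2 fold of 1.11. The other assignment of its positive values would give 23.4 and 79.4 RPM.

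*Adamts5*, the other main aggrecanase of mouse cartilage, lies on chr16:85858170-85901125 (ENSMUSG00000022894.5), minus strand, 55.1 kb from *Adamts1* with 0 annotated genes between them. It had 57.4 and 12.5 RPM in the positive libraries, and 36.9 and 0.0541 RPM in the negative libraries, the last from 4 reads. The 2 positive libraries differed by 4.57-fold in *Adamts5*, against 1.27-fold in its neighbour *Adamts1*. The negative library of 17.0 M reads lay between the 2 positive ones. In exon RPKM the level was 5.32 and 1.16 in positive cells, and 3.42 and 0.00501 in negative cells. The means were 35.0 ± 31.7 RPM in positive cells and 18.5 ± 26.1 RPM in negative cells (SD, n = 2 libraries each), a log2 fold of 0.92. The positive assignment rests on whole reads, and the other one would give 8.64 and 76.0 RPM.

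*Adamts9*, a broadly expressed versican and aggrecan protease, lies on chr6:92772699-92943492 (ENSMUSG00000030022.14), minus strand, over a span of 171 kb. It had 24 and 7.81 RPM in the positive libraries, and 12.0 and 0.0946 RPM in the negative libraries. Its positive reads were not whole numbers under either assignment, and the other one would give 2.04 and 36.4 RPM. Under either assignment the negative library of 17.0 M reads lay between the 2 positive ones, and the log2 fold of the means was 1.39 or 1.67. *A730049H05Rik*, which overlaps it on the opposite strand by 30697 bases, had 98 and 59 reads in positive cells, and 7 and 0 reads in negative cells. Strand was not stated in the counting, so reads of the 2 genes may be mixed.

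*Adamts15*, an aggrecanase that also cleaves versican, lies on chr9:30899155-30922452 (ENSMUSG00000033453.7), minus strand. It was the member that split the positive libraries most. It had 14.2 and 0.120 RPM in the positive libraries, and 6.95 and 0.135 RPM in the negative libraries. The low values rest on 5 reads in the positive library of 41.6 M reads and 10 reads in the negative one of 74.0 M reads. Each group thus held 1 library with the transcript and 1 almost without it. The 95% Poisson intervals of the 2 low libraries, 0.0390 to 0.280 RPM in the positive and 0.0648 to 0.249 RPM in the negative one, overlap. The log2 fold of the means, 1.01, therefore compares 1 library with 1 library.

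*Adamts2*, the main procollagen peptidase of fibrillar collagen I, had the highest exon level of all members in the positive library of 32.0 M reads and differed most between libraries. It lies on chr11:50602084-50807573 (ENSMUSG00000036545.8), plus strand, over 205 kb. It had 283 and 39.9 RPM in the positive libraries, and 114 and 0.135 RPM in the negative libraries, the last from 10 reads. The positive library of 32.0 M reads was 7.11-fold above the other positive library, and the negative library of 17.0 M reads lay between them. In exon RPKM the level was 30.4 and 4.27 in positive cells, and 12.2 and 0.0145 in negative cells. *Adamts2* was above *Adamts1* per kilobase of exon in the positive library of 32.0 M reads alone. The means of 162 ± 172 RPM in positive cells and 57.0 ± 80.4 RPM in negative cells (SD, n = 2 libraries each) gave a fold of 2.84, the largest among the 8 members with fixed library values, and the SD of each group exceeded its mean. The positive assignment again rests on whole reads, and the other one would give 25.8 and 375 RPM.

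*Adamts3*, which processes procollagen II and the lymphatic growth factor VEGF-C, behaved differently. It lies on chr5:89677087-89883334 (ENSMUSG00000043635.12), minus strand. It had 61 and 54 reads in positive cells, and 20 and 73 reads in negative cells. This gave 1.91 and 1.30 RPM in positive cells, and 1.18 and 0.986 RPM in negative cells. The levels differed by less than 2-fold among all 4 libraries, and the lower positive library was above the higher negative one. The 95% Poisson intervals of the nearest pair overlap, with 0.975 to 1.69 RPM in the positive library of 41.6 M reads and 0.720 to 1.82 RPM in the negative library of 17.0 M reads. The means were 1.60 ± 0.432 RPM in positive cells and 1.08 ± 0.136 RPM in negative cells (SD, n = 2 libraries each), a log2 fold of 0.57.

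*Adamts14*, the third procollagen peptidase, differed by 2.68-fold between the 2 negative libraries, again with the deeper one lower, against 1.19-fold for *Adamts3* and 843-fold for *Adamts2*. It lies on chr10:61197112-61273438 (ENSMUSG00000059901.12), minus strand. It had 4.98 and 1.71 RPM in the positive libraries, and 3.77 and 1.41 RPM in the negative libraries. The groups overlapped, and the log2 fold of the means was 0.37. Among the 74.0 M reads of the deeper negative library, 104 were of *Adamts14*, 73 of *Adamts3* and 10 of *Adamts2*.

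*Adamts12*, which degrades cartilage oligomeric matrix protein, lies on chr15:11064790-11346867 (ENSMUSG00000047497.9), plus strand. It was even between the positive libraries at 3.07 and 2.98 RPM, and had 6.13 and 0.0135 RPM in the negative libraries. It was the 1 member with its highest level in a negative library. Its value in the library of 74.0 M reads is a single read, with a 95% Poisson interval of 0.000342 to 0.0753 RPM. The log2 fold of the means was -0.02.

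**Figure D2:**
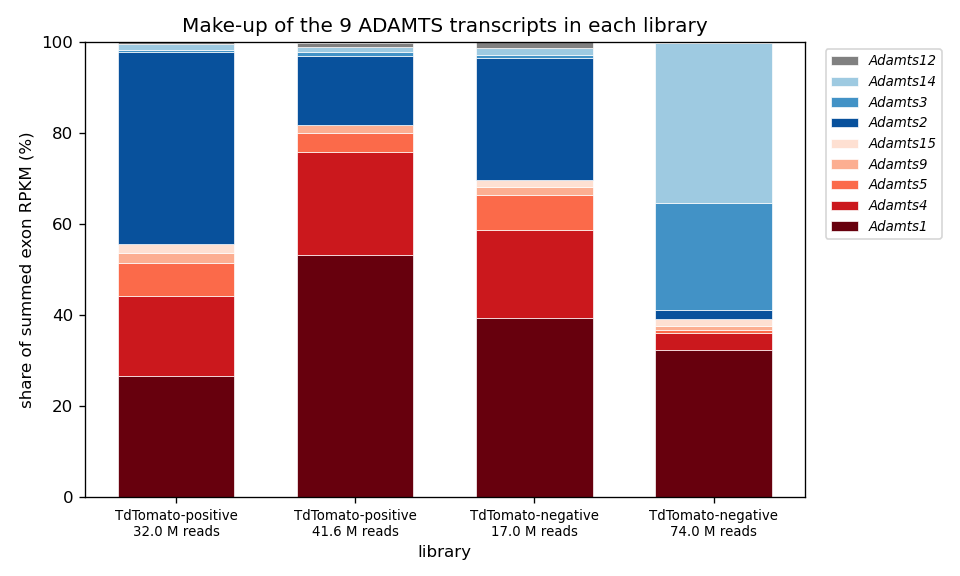
Share of each gene in the summed exon RPKM of the 9 ADAMTS genes (vertical axis, percent), 1 bar for each of the 2 TdTomato-positive and the 2 TdTomato-negative libraries. *Adamts1*, *Adamts2* and *Adamts4* fill most of 3 bars. In the negative library of 74.0 M reads *Adamts3* and *Adamts14* hold 23.6% and 35.1%, beside 32.4% for *Adamts1*.

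The make-up of the family differed between libraries of the same group as well as between groups. *Adamts2* made up 42.2% and 15.1% of the summed exon RPKM in positive cells, against 27.0% and 1.88% in negative cells. *Adamts1* made up 26.6% and 53.3% in positive cells, against 39.3% and 32.4% in negative cells. *Adamts14* made up 1.33% and 1.16% in positive cells, against 1.61% and 35.1% in negative cells. The first 3 libraries thus had a profile led by *Adamts1*, *Adamts2* and *Adamts4*. In that of 74.0 M reads *Adamts14* and *Adamts1* had the largest shares. Their 104 and 98 reads there had overlapping 95% Poisson intervals of 1.15 to 1.70 RPM and 1.08 to 1.61 RPM. As a class, the aggrecanases summed to 40.0 and 23.2 exon RPKM in positive cells, and to 31.4 and 0.302 exon RPKM in negative cells. The procollagen peptidases summed to 31.7 and 4.84 exon RPKM in positive cells, and to 13.1 and 0.467 exon RPKM in negative cells. By exon RPKM the aggrecanase sum was therefore the higher of the 2 in both positive libraries and the negative one of 17.0 M reads. It was the lower in that of 74.0 M reads. By RPM the order was reversed in the positive library of 32.0 M reads, with 258 for aggrecanases and 290.3 for procollagen peptidases. The ranking in that library thus depended on the scaling by exon length, and the other libraries kept their order by RPM.

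Promoters are shown for *Adamts1* and *Adamts2*, the leading members of their classes, which differed widely between the 2 negative libraries, and for *Adamts3*, which varied least. Each window holds the 250 bases before the RefSeq start on GRCm38.p6, 5′ to 3′ on the gene's strand. Capitals mark the GC box GGGCGG on either strand (so CCGCCC too) and the TATA box TATAAA. The windows are chr16:85803114-85803363 on the minus strand, chr11:50601835-50602084 on the plus strand and chr5:89883335-89883584 on the minus strand, in that order of genes.
Adamts1: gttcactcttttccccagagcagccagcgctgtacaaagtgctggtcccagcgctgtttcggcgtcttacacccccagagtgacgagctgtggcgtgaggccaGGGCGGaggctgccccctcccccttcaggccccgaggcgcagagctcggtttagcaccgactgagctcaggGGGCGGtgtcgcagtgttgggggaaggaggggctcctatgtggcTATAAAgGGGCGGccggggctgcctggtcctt
Adamts2: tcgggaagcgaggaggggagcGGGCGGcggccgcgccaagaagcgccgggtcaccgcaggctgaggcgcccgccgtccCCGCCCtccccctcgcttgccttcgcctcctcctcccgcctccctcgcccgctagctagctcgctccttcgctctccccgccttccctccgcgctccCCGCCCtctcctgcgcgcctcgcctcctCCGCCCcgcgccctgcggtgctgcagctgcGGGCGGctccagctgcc
Adamts3: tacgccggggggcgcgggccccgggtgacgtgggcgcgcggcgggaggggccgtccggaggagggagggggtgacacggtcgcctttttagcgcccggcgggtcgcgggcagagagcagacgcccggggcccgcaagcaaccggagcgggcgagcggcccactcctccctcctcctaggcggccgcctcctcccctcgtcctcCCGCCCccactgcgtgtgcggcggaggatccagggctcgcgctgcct
The *Adamts1* window holds 3 GC boxes and 1 TATA box, the *Adamts2* window 5 GC boxes, and the *Adamts3* window 1 GC box, and the last 2 hold no TATA box. GC content was 65.6% in the *Adamts1* window and 78.0% in each of the other 2, against a median of 52.4% over 32851 windows of the same length. GC boxes were present in 32.7% of all windows and TATA boxes in 12.4%. The letters TGANTCA (AP-1), TGTGGT (RUNX), ACAATG (SOX) and CACGTG (E-box), searched on both strands, were not found in these windows. They occur in 6.75%, 14.0%, 10.7% and 6.02% of all windows. A window was found for 6 of the 9 members.

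**Figure D3:**
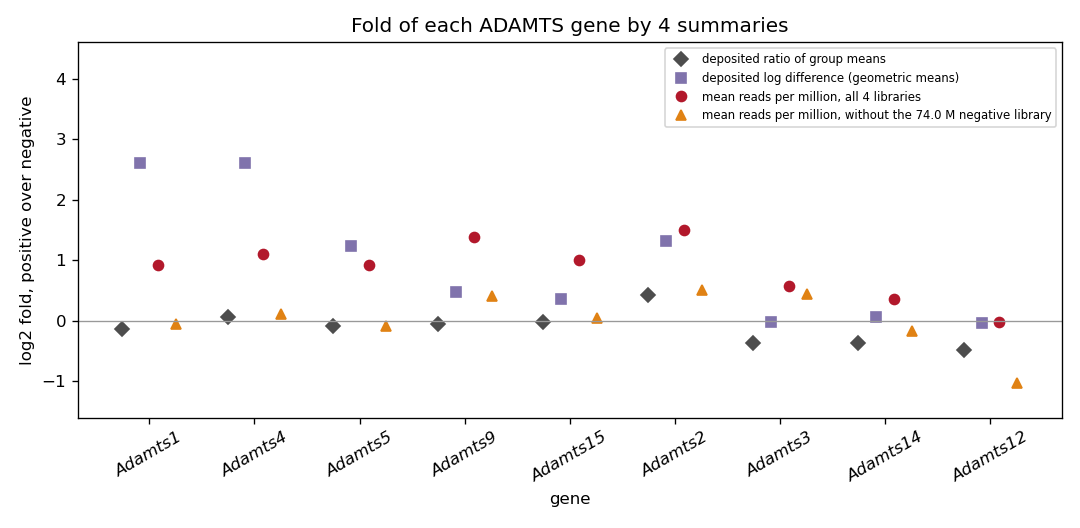
Log2 fold of each ADAMTS gene, TdTomato-positive over TdTomato-negative (vertical axis), by 4 summaries of the same libraries. The deposited ratio puts 7 of 9 genes below 0 and the ratio of mean RPM puts 8 of 9 above 0, and with the negative library of 74.0 M reads left out the folds lie between -1.02 and 0.51.

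The direction given to a member depended on the summary of its libraries. In the authors' deposited table the ratio of group means, positive over negative, was above 1 for 2 of the 9, *Adamts2* at 1.34 and *Adamts4* at 1.05. In the authors' deposited table the log difference, which compares geometric means, was above 0 for 7 of the 9, and *Adamts1* and *Adamts4* each stood at 2.60 when converted to log2. From mean RPM, 8 of the 9 were higher in positive cells, and the median log2 fold of all 9 was 0.93. Of the 17171 genes with at least 10 reads in 2 libraries, 54.1% were higher, and the median was 0.13. All 9 members met that minimum. The deposited values hold an offset and a second division by depth, so that a gene with no reads has a ratio of 0.764 in the authors' deposited table. The offset made up 0.908% of the value of *Adamts1* in the positive library of 32.0 M reads, and 91.5% of that of *Adamts3*, whose span is 206 kb. The ratio in the authors' deposited table was 0.782 for *Adamts3* and 0.780 for *Adamts14*, close to that of a gene with no reads. For *Adamts1*, *Adamts3*, *Adamts5*, *Adamts9*, *Adamts14* and *Adamts15* the direction of the ratio in the authors' deposited table was opposite to that of mean RPM.

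The smallest p-values of members in the authors' deposited table were 0.0692 for *Adamts4* and 0.0719 for *Adamts1*, each with an FDR of 1.000. In the authors' deposited table *Adamts2* had a p of 0.358 and *Adamts5* of 0.389. The other 5 members had a p between 0.742 and 0.996 in the authors' deposited table. A fit of log2(RPM + 0.5) with limma, chosen after the data were seen, called 0 of 17171 genes, while 6.34% had an unadjusted p under 0.05. In that limma fit *Adamts2* differed by 3.65 ± 2.67 on the log2 scale (SE), with a Benjamini-Hochberg adjusted p of 0.687. *Adamts4* differed by 3.07 ± 2.08 (SE), with a limma adjusted p of 0.68. *Adamts1* differed by 2.79 ± 1.94 (SE), with a limma adjusted p of 0.683. *Adamts9* differed by 2.39 ± 1.61 and *Adamts5* by 2.59 ± 2.17 (SE), with limma adjusted p-values of 0.679 and 0.711. The differences of *Adamts12* and *Adamts15* were 0.93 ± 1.31 and 0.47 ± 1.96 (SE). The differences of *Adamts3* and *Adamts14*, 0.40 ± 0.53 and 0.29 ± 0.77 (SE), were likewise smaller than their errors.

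The differences of *Adamts1*, *Adamts2* and *Adamts4* depended on which negative library was kept, while that of *Adamts3* was 0.31 without that of 74.0 M reads and 0.49 without that of 17.0 M reads. When the negative library of 74.0 M reads was left out, the limma difference was -0.06 for *Adamts1*, 0.03 for *Adamts4* and -0.10 for *Adamts2*, and 3 of the 9 members were above 0. With that of 17.0 M reads left out instead, it was 5.63 for *Adamts1*, 6.11 for *Adamts4* and 7.40 for *Adamts2*. In that reduced fit 6 of the 9 had an unadjusted p under 0.05 against 11.6% of all genes, and limma's adjusted p was 0.41 for each of the 6. The 6 were *Adamts1*, *Adamts2*, *Adamts4*, *Adamts5*, *Adamts9* and *Adamts12*. The lone negative library is assumed there to vary like the positive ones. The part of cell make-up in these differences was not tested.

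**Figure D4:**
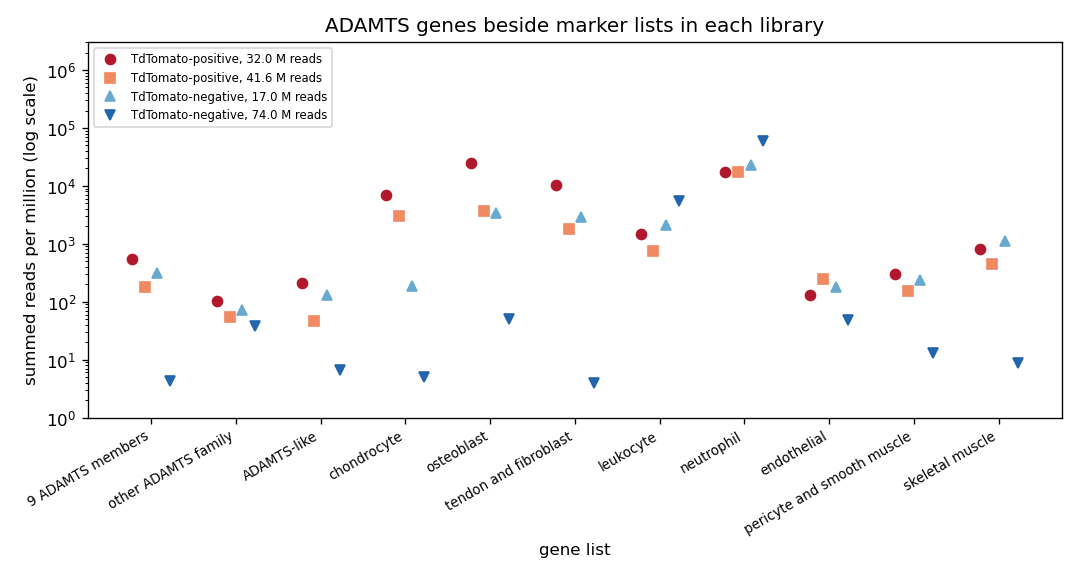
Summed RPM (vertical axis, log scale) of the 9 ADAMTS genes, of related gene lists and of cell type markers in the 2 TdTomato-positive and the 2 TdTomato-negative libraries. The ADAMTS sum, at 551 and 177 RPM in positive cells and 317 and 4.28 RPM in negative cells, is lowest in the library of 74.0 M reads. Neutrophil markers reach 58512 RPM there, or 99658 RPM under the other assignment of their open values.

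The substrates of the proteases were set beside the proteases. Passing the test means here an FDR of 0.05 or less in the authors' deposited table. For *Bgn*, *Dcn*, *Col1a1*, *Col1a2*, *Col2a1*, *Col3a1*, *Pcolce*, *Timp1*, *Timp2*, *Timp3* and *Lrp1* the file leaves the assignment of at least 1 group's values to its libraries unfixed. The direction of the fold was the same under either assignment for all of these except *Timp2*. Of the 6 fibrillar procollagen genes, 6 were higher in positive cells by mean RPM, with a median log2 fold of 2.42, and 1 passed the test. That gene was *Col2a1*, the collagen of cartilage, with 2753 and 1999.6 RPM in the positive libraries, and 6.36 and 0.0676 RPM in the negative libraries. *Col1a1*, the main collagen chain of bone and tendon and the gene with the highest exon level in the list, had 21690.3 and 2598 RPM in the positive libraries, and 3173 and 9.36 RPM in the negative libraries, and its log2 fold was 0.81 to 3.25 over the assignments. *Col3a1* had 9314 and 2107 RPM in positive cells, and 3903 and 8.16 RPM in negative cells. *Col1a2* had 11596 and 1934 RPM in positive cells, and 2331 and 3.91 RPM in negative cells. The collagen I and III genes thus overlapped between the groups under either assignment, while *Col2a1* separated them. Both positive libraries were above both negative ones in 20.7% of the 10916 genes with fixed values. For *Col1a1* the other assignment of the negative values gives 0.852 RPM at 17.0 M reads and 13839 RPM at 74.0 M reads. Proteoglycan and COMP genes were higher by mean RPM in 6 of the 6 that had enough reads, with a median log2 fold of 3.49, and 0 passed the test. *Acan*, which encodes aggrecan, had 92.7 and 48.4 RPM in the positive libraries, and 4.24 and 0 RPM in the negative libraries. *Comp*, the *Adamts12* substrate, had 1692 and 374 RPM in the positive libraries, and 117 and 0.149 RPM in the negative libraries. The aggrecan transcript was thus low in both negative libraries, whereas *Adamts1*, *Adamts4* and *Adamts5* were high in 1 of them.

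*Dcn*, which encodes the small proteoglycan decorin and had the highest exon level of the list, had 7538 and 1135 RPM in positive cells, and 1992 and 2.66 RPM in negative cells. *Hapln1*, the link protein that ties aggrecan to hyaluronan, separated the groups, with 31.0 and 41.4 RPM in positive cells, and 2.42 and 0.568 RPM in negative cells. *Bgn*, the gene of the related biglycan, had 1356 and 203 RPM in positive cells, and 218 and 0.622 RPM in negative cells. *Vcan*, the versican gene, overlapped, with 84.1 and 12.8 RPM in positive cells, and 40.6 and 9.55 RPM in negative cells.

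The genes of enzymes that cut the other end of procollagens, and of their enhancers, overlapped between groups, as *Adamts2* did. Overlap was common, so it does not set these genes apart. Of the 10916 genes with fixed values, 20.7% were separated with positive cells higher and 16.9% with negative cells higher. Of 4 such genes with enough reads, 3 were higher by mean RPM, 1 was lower and 0 passed the test. *Bmp1*, the main procollagen C-proteinase, had 227 and 96.7 RPM in the positive libraries, and 124 and 0.892 RPM in the negative libraries. Its enhancer *Pcolce* had 824 and 175 RPM in positive cells, and 239 and 0.392 RPM in negative cells. *Pcolce2* had 162 and 16.0 RPM in positive cells, and 61.6 and 0.243 RPM in negative cells. *Tll1*, a *Bmp1* relative, was highest in a negative library, with 0.720 and 0 RPM in positive cells, and 3.48 and 0 RPM in negative cells.

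Of the 8 inhibitors, activators and clearance genes with enough reads, 6 were higher by mean RPM, 2 were lower and 0 passed the test. *Timp3*, the tissue inhibitor that blocks aggrecanases, had 437 and 155 RPM in the positive libraries, and 228 and 2.32 RPM in the negative libraries. *Timp3* therefore overlapped between the groups. *Timp1*, a metalloprotease inhibitor, separated them, with 144 and 62.6 RPM in positive cells, and 16.0 and 0.0541 RPM in negative cells. *Timp4* was highest in a negative library, with 3.07 and 0.505 RPM in positive cells, and 20.5 and 0 RPM in negative cells. *Lrp1*, the receptor that clears *Adamts4* and *Adamts5* proteins, had 925 and 131 RPM in positive cells, and 357 and 34.9 RPM in negative cells. *Sdc4*, a cell surface proteoglycan that binds *Adamts5* protein, had 210.5 and 141 RPM in positive cells, and 96.8 and 47.1 RPM in negative cells. *Timp2* had 1227 and 319 RPM in positive cells, and 563 and 155 RPM in negative cells, and its log2 fold was -0.69 to 1.36 over the assignments.

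Of the 10 other ADAMTS genes, 8 had enough reads, of which 6 were higher and 2 lower by mean RPM, with a median log2 fold of 0.73, and 0 passed the test. *Adamts10*, which acts in microfibril assembly, led this list with 79.1 and 47.7 RPM in the positive libraries, and 62.3 and 31.7 RPM in the negative libraries. Like *Adamts3* and *Adamts14*, *Adamts10* was thus within the range of a few fold across the 4 libraries. *Adamts7*, which like *Adamts12* degrades COMP, had 6.73 and 4.04 RPM in positive cells, and 0.236 and 5.04 RPM in negative cells. *Adamts17* had 5.04 and 0.0721 RPM in positive cells, and 4.18 and 0.635 RPM in negative cells. *Adamts20* separated the groups, with 3.91 and 1.56 RPM in positive cells, and 0 and 0.257 RPM in negative cells. *Adamts19* had 23 and 14 reads in positive cells and 0 reads in either negative library, which makes its mean RPM at least 4.0 log2 units higher when 3 reads over both negative libraries together are set as the floor.

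The transcripts whose profile over the 4 libraries was most like that of *Adamts1*, the member with the highest level per genomic span in positive cells, were *Des*, *Phlda3*, *Car3*, *Snai2* and *Gng11*. Likeness is the Euclidean distance over the 4 centred log2 values, which was 0.34 for *Des*, 0.41 for *Phlda3* and 0.59 for *Gng11* among 3103 genes compared. *Des*, the intermediate filament gene of muscle, had 65.0 and 51.0 RPM in the positive libraries, and 81.1 and 0.270 RPM in the negative libraries. *Snai2*, a transcription factor of mesenchymal cells, had 28.4 and 15.4 RPM in positive cells, and 19.6 and 0.189 RPM in negative cells. Each of these was low in the negative library of 74.0 M reads alone. That follows from choosing them by likeness to *Adamts1* over the same 4 values. The 6 skeletal muscle markers, among which *Des* was not listed, summed to 439 to 798 RPM in the positive libraries, and to 8.65 to 1109 RPM in the negative ones, or 508 to 2629 RPM there under the other assignment.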

How the data were processed

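RNA of sorted femoral periosteal cells was measured in 2 TdTomato-positive and 2 TdTomato-negative libraries of 75-nucleotide paired reads. The submitters' processing notes name STAR, Partek and mm10, with no version, and neither the annotation nor the strand setting is given in the sources used here. The authors' deposited table of 47643 genes holds, per the file headers, group means and a highest value of a normalized signal. Per the file headers, the authors' lognormal model with shrinkage gave the difference of the groups on the natural log scale, the ratio of the group means, the p-value and its step-up FDR. The deposited scores are a sum over libraries, a signed form of the ratio and an Akaike criterion, per the file headers. The deposited table has no column per library, and its FDR at 0.05, two-sided, is the test used.

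Together, both means, the maximum and the difference of logs gave exactly 1 set of 4 library values for each of the 47643 genes, each RPKM over the genomic span plus 0.1, divided again by depth and span. This scale is inferred from the values and stated in no header. Depths came from 20946 genes with no reads, and 64.8 to 86.2% of the depth lay in genes. A group's 2 values were assigned to its libraries by whole reads (within 0.002, then 0.05) or because the other assignment was negative. That fixed both groups for 63.6% of 17171 genes with at least 10 reads in 2 libraries, and for 8 of 9 members. For unresolved genes, the assignment whose libraries differ less was taken. Poisson intervals (exact, 95%) cover counting error only, and PCR duplicates are not separated.

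Exon lengths are from GENCODE M21. Levels are RPM and exon RPKM, and folds are of mean RPM without pseudocount. Fits used limma 3.58.1 in R 4.3.3, with Benjamini-Hochberg adjustment over all genes tested, and the scripts were tested on simulated data. The members and lists were chosen with earlier results of these data known. All 9 members are named. From each related list, the 3 genes with the highest exon RPKM in positive cells and the 2 with the largest absolute log2 fold among those with at least 10 reads in 2 libraries are named. *Vcan*, *Timp3* and *Lrp1* fall outside that rule and were chosen after their values were seen. Alternatives were other scalings, filters, pseudocounts, group summaries and leaving out each library.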

Additional observations from a re-analysis of the deposited data

How the results depend on the processing

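Over the whole table, the authors' deposited FDR called 3 genes. Limma on log2(RPKM + 1) called 0 of 6855 genes, and 0 with a pseudocount of 0.1, with median-ratio scaling or with log2(RPM + 0.5). Without a filter limma called 3, of which 2 were higher and 1 lower in positive cells. The deposited calls were 3 higher and 0 lower, so the 2 sets are not the same. At an unadjusted p under 0.05 the first of these fits had 493 genes higher and 280 lower. Leaving out each library in turn gave 0 to 2 calls. Under every one of these settings 0 of the 9 ADAMTS members were called, of which 2 reach the filter of 1 RPKM over the span. The causes were not tested.

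The log2 folds of the members were -0.48 to 0.42 by the ratio in the authors' deposited table, -0.02 to 1.5 by mean RPM and -0.16 to 1.32 after median-ratio scaling, with 2, 8 and 8 of 9 above 0. For *Adamts3* they were -0.36 by the deposited ratio, 0.57 by mean RPM, 0.55 after median-ratio scaling and -0.01 by geometric means. Leaving out 1 library moved most members by more than any other choice. Folds were 0.70 to 10.22 without the negative library of 17.0 M reads, -1.02 to 0.51 without that of 74.0 M reads, -4.88 to 0.75 when the positive library of 32.0 M reads was left out, and 0.00 to 2.31 when that of 41.6 M reads was. No paired analysis was possible because the columns carry no collection number. With 2 libraries per group, and fewer than 11 reads of *Adamts2*, *Adamts4*, *Adamts5*, *Adamts9*, *Adamts12* and *Adamts15* in the negative library of 74.0 M reads, counting error limits their folds there.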

Other observations

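The ADAMTS-like genes, which encode secreted relatives without the protease domain, summed to 213 and 47.3 RPM in positive cells, and to 132 and 6.49 RPM in negative cells. Of the 6 with enough reads, 5 were higher and 1 was lower in positive cells by mean RPM, with a median log2 fold of 0.91, and 0 passed the test. *Adamtsl4*, a fibrillin-binding family member, had 82.5 and 18.0 RPM in positive cells, and 45.9 and 5.74 RPM in negative cells. *Adamtsl2*, which also acts with microfibrils, had 44.3 and 10.7 RPM in positive cells, and 14.0 and 0.0811 RPM in negative cells. *Adamtsl5* had 30.4 and 5.58 RPM in positive cells, and 25.4 and 0.405 RPM in negative cells. *Adamtsl3* had 29.5 and 7.74 RPM in positive cells, and 18.3 and 0.189 RPM in negative cells. For *Adamtsl4* the file does not tie the positive values to a library, and its log2 fold was 0.96 to 1.23 over the assignments.

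The endothelial markers, 6 of 6 detected in every library, summed to 130.0 and 242 RPM in positive cells, and to 176 and 48.7 RPM in negative cells. Pericyte and smooth muscle markers summed to 301 and 151 RPM in positive cells, and to 238 and 12.9 RPM in negative cells, where *Cspg4* was at 0 reads in the library of 74.0 M reads.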
